A study of Mus musculus with 2 samples.

Results

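The MYC, MAX and MXD network is a family of DNA-binding proteins that share a basic helix-loop-helix leucine zipper and meet at MAX. The genes described are the MYC paralogs Myc, Mycn and Mycl, their partner Max, the MXD genes Mxd1, Mxd3, Mxd4 and Mxi1, and the larger MAX partners Mnt and Mga. These 10 genes were chosen by name and not by a rule on their levels, though with earlier results of these data known. They are among 43346 Ensembl genes in the tables, of which 21474 are protein-coding. Each was found by its Ensembl identifier without the version.

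The levels come from paired-end sequencing of polyadenylated RNA, as labelled, of the mouse erythroid line G1E-ER4, which is immortalized and whose parent G1E cells lack Gata1. G1E-ER4 cells carry GATA1 fused to the hormone-binding domain of an estrogen receptor, and the labels describe cells in which Gata1 is restored and differentiation is induced with estradiol (E2), without dose or duration. The 2 libraries, biological replicates 1 and 2, form 1 group. No untreated or parental sample was analysed here, so no value below is a response to estradiol or to GATA1, and both libraries come from 1 line in which every cell carries the same fusion.

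Since 1 biosample record stands behind both libraries, the spread between them may be technical, and p-values between them compare these libraries and hold counting error only. Replicate 1 had 68901065 estimated counts and replicate 2 had 51923116. Of the 8 erythroid markers checked, 8 reached 1 TPM (a level per transcript length, scaled to a fixed total) in both libraries, from Hba-a1 at 7841 ± 1548 TPM (SD, n = 2) down to Alas2 at 1.72 ± 0.396 TPM. Of 18 markers of other blood, endothelial and fibroblast cells, 1 did so, the platelet integrin gene Itga2b at 23.7 ± 7.90 TPM. The 18 summed to 20.1 TPM in replicate 1 and 32.3 TPM in replicate 2, and Cd3e, Lyz2, Itgam, Fcer1a, Cdh5 and Pecam1 had 0 counts in both. The labels name no batch.

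MYC binds the E-box motif CACGTG only as a dimer with MAX and recruits activators of transcription. The MXD proteins and MNT also need MAX, bind the same motif and recruit SIN3 corepressors, so that they compete with MYC for both partner and site, while MGA brings MAX to a Polycomb complex. In erythroid progenitors MYC is known for driving growth and division, and GATA1 is known to lower Myc during maturation.

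Of the 10 members, 8 were detected, meaning at least 1 TPM in both libraries, as were 39.0% of protein-coding genes (8376 of 21474). The detected members spanned from 1.26 TPM for Mga in replicate 2 to 839 TPM for Myc in the same library. Myc stood above all other members in both libraries, followed by Mnt and then Max, and the 4 MXD genes lay well under all of these. The place of Mnt above Max holds only with all transcript models. With protein-coding models alone Mnt was at 74.9 and 59.2 TPM, under Max at 96.3 and 78.1 TPM. In these bulk libraries, fewer cells expressing a gene and less RNA per cell cannot be told apart.

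**Figure D1:**
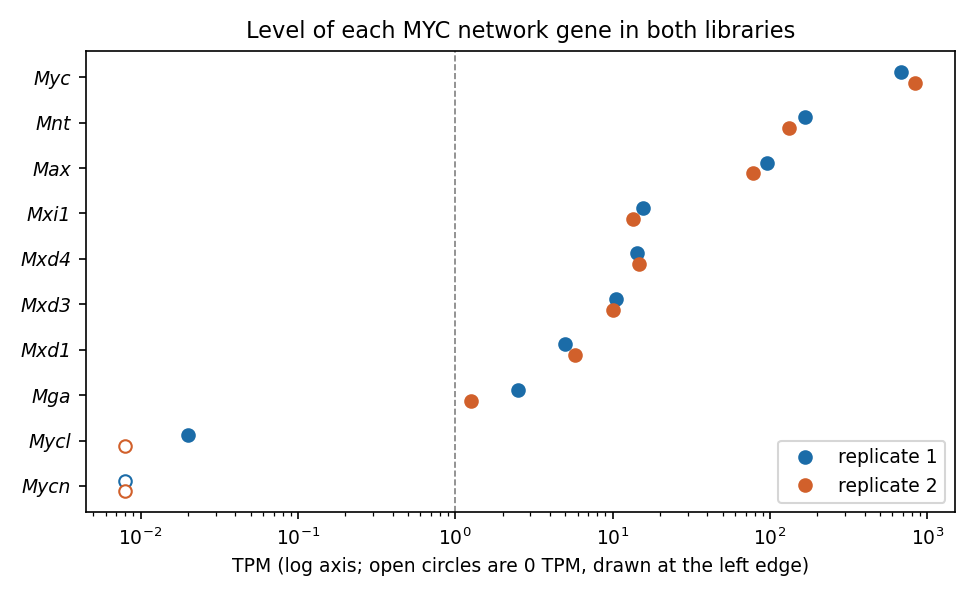
Level of each member in TPM on a log axis, 1 point for each library, ordered by the mean, with the detection limit of 1 TPM as a dashed line and 0 TPM drawn as open circles at the left edge. Myc, Mnt and Max stand apart at the top, Mxi1 and Mxd4 overlap, and Mycl and Mycn lie under 0.1 TPM.

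Several members differ between their transcripts in short exons or in the start of the protein, and these stretches are printed first because the isoform shares further on turn on them. In Max, on the minus strand of chromosome 12, the longer form carries a 27-base exon of 9 codons at chr12:76961263-76961289, which lies before the DNA-binding basic region. In Mxd4, on the minus strand of chromosome 5, the shorter form lacks a 30-base exon of 10 codons at chr5:34184314-34184343, within the stretch that encodes the basic region. Capitals mark the optional exon, read 5′ to 3′ on the transcript with 15 bases of the neighbouring exons on each side, in the mm10 build with the GENCODE M21 models.
Max, exon included: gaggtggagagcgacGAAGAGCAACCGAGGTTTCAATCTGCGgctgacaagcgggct
Max, exon skipped: gaggtggagagcgacgctgacaagcgggct
Mxd4, exon included: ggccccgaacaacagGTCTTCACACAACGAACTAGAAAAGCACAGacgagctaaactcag
Mxd4, exon skipped: ggccccgaacaacagacgagctaaactcag

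Both optional exons hold a whole number of codons, so the reading frame is kept with and without them. Mxi1, on the plus strand of chromosome 19, instead has models with different first exons and different start codons. The upstream start lies in the first exon of its model, and the downstream start lies in the second exon, which both models share, after an untranslated first exon. The first 30 coding bases of its leading 2 models are at chr19:53310700-53310729 and chr19:53331386-53331415, with the start codon in capitals.
Mxi1, upstream start (295 codons): ATGggcaaacgcgggcggccgcgcaaggag
Mxi1, downstream start (192 codons): ATGccgagcccccggctacagcactcgaag

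The MYC paralogs came almost wholly from Myc (chromosome 15, 61985391 to 61990374, plus strand). Replicate 1 had 686 TPM of Myc from 64534 estimated counts, and replicate 2 had 839 TPM from 53758, which gives 763 ± 109 TPM (mean ± SD, n = 2). Replicate 2 was the higher, and Myc ranked 195 and 149 among the 21474 protein-coding genes. Of the 8376 detected protein-coding genes, whose median level was 20.5 TPM, 98.0% had a lower mean than Myc. Myc alone made up 68.7% and 76.7% of the summed TPM of the 10 members, which was 998 TPM in replicate 1 and 1094 TPM in replicate 2.

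The other two paralogs were at or near 0. Mycn, the paralog best known from neural progenitors (chromosome 12, 12936093 to 12941914, minus strand), had 0 counts in both libraries. The limit that a count of 0 allows, 3 counts, is 4.35e-06% of replicate 1 and 5.78e-06% of replicate 2, for counting error only. Mycl (chromosome 4, 122995652 to 123002485, plus strand) had 4 counts and 0.02 TPM in replicate 1 and 0 counts in replicate 2. Pvt1, the long non-coding RNA gene next to Myc, was at 0.36 TPM and 0.17 TPM from 14 and 8 counts, under the detection limit in both libraries.

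Max, the partner that MYC, MXD, MNT and MGA proteins all need (chromosome 12, 76937269 to 76962201, minus strand), reached 96.3 TPM in the first library and 78.1 TPM in the second (87.2 ± 12.8 TPM). It was higher than 81.0% of detected protein-coding genes. The Myc level over the Max level was 7.12 in replicate 1 and 10.7 in replicate 2, a mean ratio of 8.93 ± 2.56. Myc messenger RNA therefore exceeded that of its partner in both libraries, by a margin that differed between them. With all 9 possible partners summed, the ratio to Max was 9.37 and 13.0. These are ratios of messenger RNA, and protein was not measured.

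Among the MXD genes, levels ran from 5.0 TPM for Mxd1 to 15.6 TPM for Mxi1, both in replicate 1. Mxi1 (chromosome 19, 53310518 to 53375810, plus strand) had 15.6 TPM in the first library and 13.4 TPM in the second. Mxd4 (chromosome 5, 34173883 to 34187720, minus strand) was at 14.2 TPM and 14.7 TPM, inside the range of Mxi1. Mxd3, whose protein is known from cells in S phase (chromosome 13, 55325168 to 55329823, minus strand), was at 10.5 TPM and 10.1 TPM. Mxd1, the founding MXD gene and a marker of terminal differentiation in several lineages (chromosome 6, 86647042 to 86669161, minus strand), was the lowest at 5.0 TPM and 5.74 TPM. Mxd4 exceeded Mxd1 by 2.85-fold in replicate 1 and 2.56-fold in replicate 2, and between Mxd4, Mxd3 and Mxd1 the ranges did not overlap.

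The value of Mxd3 carries a limit. On the opposite strand 105 exonic bases overlap Prelid1, which had 26392 and 33783 counts against 748 and 530 for Mxd3, and the sources used here do not give whether counting used strand. Mxd4 overlaps the antisense gene Gm42846 over 514 exonic bases. No count was available for Gm42846, so the same limit holds for Mxd4 and could not be checked. Mxi1 overlaps Gm10197 over 194 bases, where Gm10197 had 0 counts. Of the 31-base words in member transcripts, none was shared between members. Words shared with any other gene made up 0% for Myc, Mnt and Mxd1 and at most 5.87% for the others, the last for Mxd4.

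Mnt was the most abundant MAX-binding repressor gene (chromosome 11, 74830920 to 74845725, plus strand). Its levels were 168 TPM and 132 TPM (150 ± 26.0 TPM), higher than 88.4% of detected protein-coding genes. With all transcript models, Mnt exceeded Max by 1.75-fold and 1.68-fold, and the summed 4 MXD genes by 3.71-fold and 2.99-fold. The 4 MXD genes summed to 45.4 TPM and 43.9 TPM. Mga, which encodes a very large protein with a T-box beside its helix-loop-helix domain (chromosome 2, 119897228 to 119969581, plus strand), was at 2.51 TPM and 1.26 TPM. Mga was the lowest of the detected members in both libraries, and 4.94% of detected protein-coding genes had a lower mean.

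Set against the MYC paralogs, the antagonist genes (Mxd1, Mxd3, Mxd4, Mxi1, Mnt and Mga) summed to 0.315 of the MYC level in replicate 1 and 0.211 in replicate 2, a mean of 0.263 ± 0.0741. Most of this was Mnt, since the 4 MXD genes alone came to 0.0662 and 0.0523 of the MYC level. Myc exceeded Mnt by 4.07-fold and 6.38-fold. The ratio depends on which transcript models and which unit enter it. It was 0.454 in CPM, which takes no account of length, and 0.150 with protein-coding models only.

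The models that make up the Myc level differed between the libraries. The leading model, ENSMUST00000191178, is 1362 bases long, which is its coding sequence with the stop codon and no untranslated region. It took 56.76% of Myc TPM in replicate 1 and 74.88% in replicate 2, at 389 TPM and 629 TPM, from 28209 and 34345 estimated counts. The next, ENSMUST00000159327, is 2186 bases long with untranslated regions at both ends and took 32.54% and 20.05%. Its coding sequence of 439 codons begins in the second exon, while that of the leading model begins upstream in the first, as does the longer MYC protein that is known to start at a codon other than AUG.

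The coding-only model was higher in replicate 2 and the rest of Myc in replicate 1. On scaled counts, the log2 ratio of replicate 2 to replicate 1 was 0.80 for the coding-only model and -0.39 for all other Myc models together. ENSMUST00000022971 and ENSMUST00000161976 have identical sequences of 2338 bases and were each given 4.96% and 2.34%. The other models took less than 1% each. Leaving out the coding-only model, Myc stood at 2.89 times Max on average. This drops the 43.7% and 63.9% of Myc counts given to that model without assigning them to the others, so it is not a new estimate of the Myc level.

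Coding-only leading models were not particular to Myc. Of 199 detected genes that have a coding-only model and another protein-coding model, 23 (11.6%) were led by a coding-only model in both libraries. The coding-only share was larger than that of Myc in 11.1% of these genes in replicate 1 and in 6.03% in replicate 2. The share of the leading Myc model differed by 18.1 percentage points between the libraries, against a median of 5.67 points among 6302 detected genes with more than 1 model, of which 79.4% had a smaller difference. The sources used here do not give how reads were split between nested models.

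**Figure D2:**
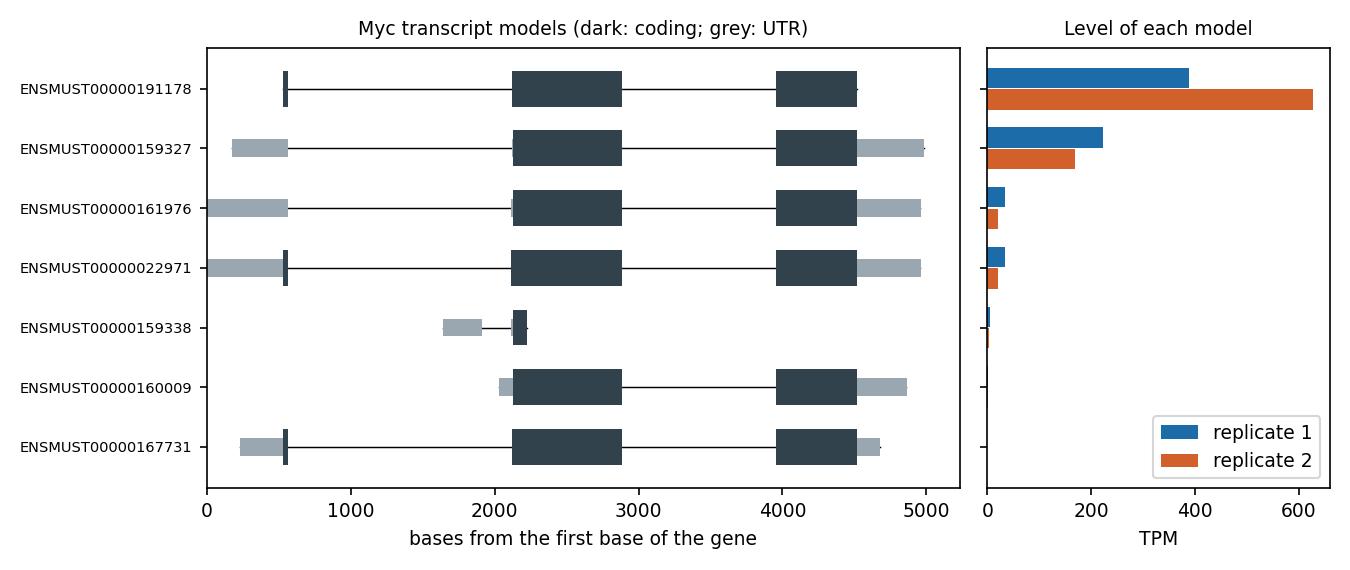
Left, exons of the Myc transcript models as bases from the first base of the gene, with coding parts dark and tall and untranslated parts grey; right, the TPM of each model as bars for replicates 1 and 2. The coding-only model at the top has the longest bar in both libraries, at 389 and 629 TPM, and ENSMUST00000188482 is left out because its length differs between annotation versions.

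Max kept a fixed split between its 2 forms. The short form without the 27-base exon took 70.30% of Max TPM in replicate 1 and 70.71% in replicate 2, and the long form 29.70% and 29.29%. These encode 151 and 160 codons in M21, where both models differ in length from the quantified ones. The Max shares differed by under 1 point between the libraries. Mxd4 was as even. Its 209-codon form took 68.48% and 68.32%, and the form that lacks the 30-base exon took 31.52% and 31.68%, although the shorter model received 11.0% and 11.2% of the Mxd4 counts.

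Mxi1 was split nearly evenly between the 2 models. Both differ in length between the quantified annotation and M21, from which their starts were taken. The one with the upstream start took 55.96% in replicate 1 and 52.46% in replicate 2, and the one with the downstream start 44.04% and 47.40%. Mxd3 was carried by 1 protein-coding model, at 97.67% and 97.47%, and Mxd1 has a single model.

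In Mnt the leading model by TPM was not protein-coding. A 777-base retained-intron model, ENSMUST00000133217, took 55.52% and 54.97% of Mnt TPM, at 93.5 TPM and 72.3 TPM. The full-length model of 591 codons, ENSMUST00000000291, took 44.48% and 45.03%, at 74.9 TPM and 59.2 TPM, but 85.2% of the Mnt counts in each library. Taken from protein-coding models alone, Mnt was thus under the Max level in both libraries, where with all models it was above.

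Mga had no stable leading model. The 1264-base processed transcript ENSMUST00000138851 led in replicate 1 at 38.64%, and the 3003-codon model ENSMUST00000046717 led in replicate 2 at 37.63%. In replicate 1, ENSMUST00000138851 had 64.5 counts, and in replicate 2 it had 16.3 counts and 25.73%. ENSMUST00000046717 took 30.63% in replicate 1. ENSMUST00000132054 took 20.93% and 8.95%, ENSMUST00000110774 took 3.74% and 21.40%, and ENSMUST00000150742 took 0.97% and 5.09%. Protein-coding models together received 89.6% and 95.2% of the Mga counts. Their summed level was 0.99 TPM in replicate 1 and 0.76 TPM in replicate 2, under the detection limit of 1 TPM. Mga thus passed that limit only with its short models that are not protein-coding. Of the 7 detected members with more than 1 model, the leading model was the same in both libraries for all but Mga, against 83.2% of the 6302 detected genes with more than 1 model.

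**Figure D3:**
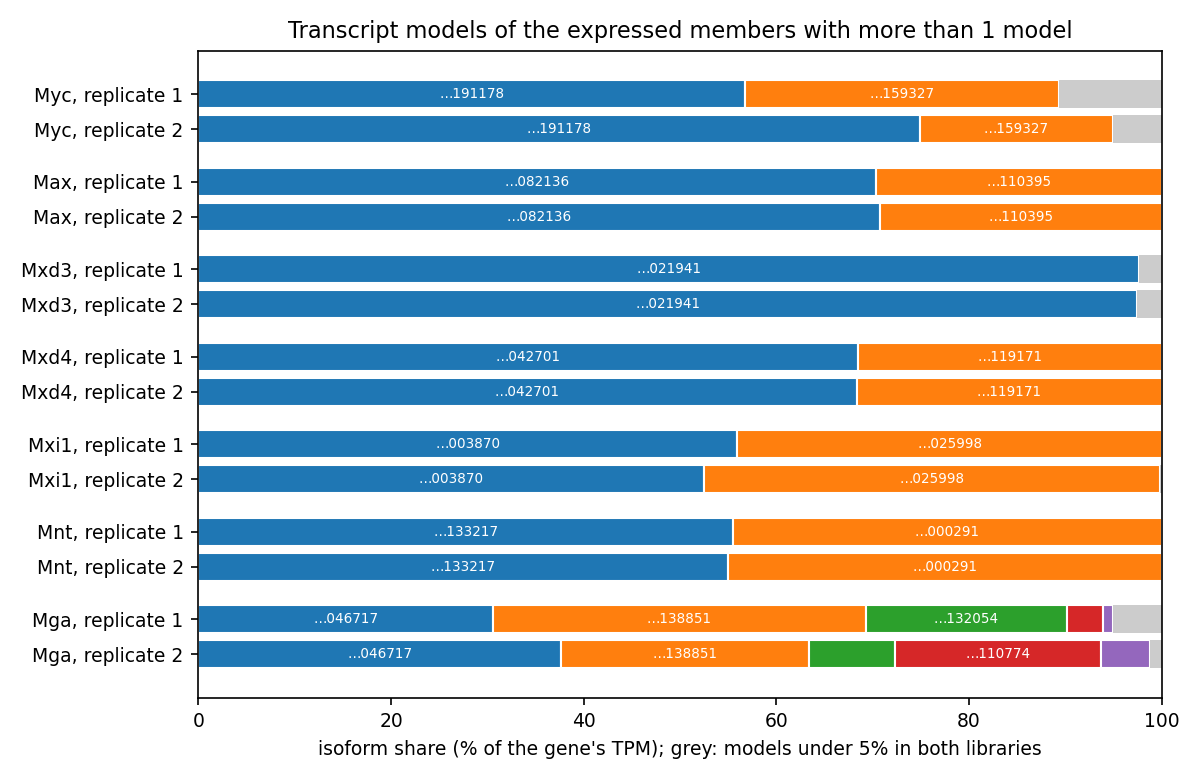
Stacked bars of isoform share, as a percent of the gene's TPM, for the 7 detected members with more than 1 transcript model, 1 bar for each library, with the last 6 digits of the model identifier inside. Max and Mxd4 bars match between libraries, the leading Myc segment is longer in replicate 2, and the Mga segments change.

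Between the libraries, 8 members had enough counts to be tested and 7 were called by the exact two-sided binomial test with Benjamini-Hochberg adjustment over 10863 genes. Of all genes tested, 69.1% were called, so a call was common in this comparison and the members' count is no result about them. Myc, Mxd1 and Mxd4 were higher in replicate 2, as were 34.7% of all genes tested, and Max, Mxi1, Mnt and Mga were higher in replicate 1, as were 34.4%. No member reached a 2-fold difference, which 9.73% of genes tested did.

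The log2 ratio of replicate 2 to replicate 1 was 0.25 for Myc, with a 95% interval of 0.23 to 0.27 and an adjusted p of 2.6e-192 by the exact binomial test. For Mnt it was -0.24 (95% interval -0.27 to -0.21, adjusted p = 2.5e-55, exact binomial test), and for Max it was -0.20 (95% interval -0.24 to -0.15, adjusted p = 6.4e-18, exact binomial test). Mxd1 was at 0.30, Mxd4 at 0.14, Mxi1 at -0.12 and Mga at -0.34 on the same scale. Mxd3 was not called, at 0.02 with a 95% interval of -0.15 to 0.18. All 8 ratios were smaller than the SD of 0.72 over all genes tested, whose median was -0.01. Scaling by library totals in place of TMM (trimmed mean of M values) shifts every ratio by -0.11, and under it Mxd4 was at 0.04 (adjusted p = 0.48, exact binomial test) and no longer called.

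The Mga ratio differed between units. In TPM the log2 ratio of Mga was -0.99, against -0.34 on counts, and the deposited effective length of the gene was 5317 bases in replicate 1 and 7860 in replicate 2. For the other 7 tested members the log2 ratios of both units lay at most 0.11 apart, and only that of Mxd3 changed sign.

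**Figure D4:**
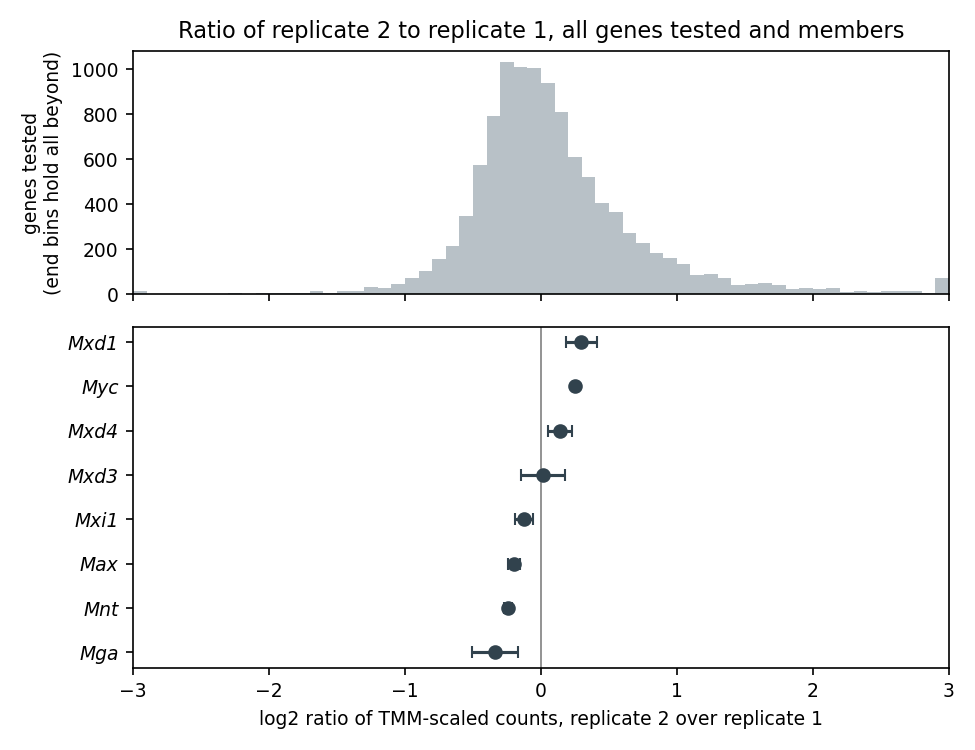
Top, histogram of the log2 ratio of TMM-scaled counts, replicate 2 over replicate 1, for the 10863 genes tested, with values beyond the axis placed in the end bins; bottom, the same ratio for the 8 tested members with 95% intervals for counting error. Myc, Mxd1 and Mxd4 lie right of 0, Max, Mxi1, Mnt and Mga lie left, and all 8 lie in the bulk of the histogram.

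The E-box was looked for in promoter windows of RefSeq (GRCm38.p6, 250 bases before to 50 bases after each start), which matched 9 members, all but Myc, through 11 windows. The motif CACGTG reads the same on both strands. It was found in 3 of the 11 windows, those of Max, Mnt and Mxd4, and in 7.15% of all 32851 windows and 10.9% of the 8528 windows of detected protein-coding genes. The 3 matches are shown with 12 bases on each side in gene direction, the motif in capitals, since they show where the network's own motif lies at its own genes. They are at chr12:76962234-76962263 on the minus strand for Max, chr11:74830789-74830818 on the plus strand for Mnt and chr5:34187912-34187941 on the minus strand for Mxd4.
Max: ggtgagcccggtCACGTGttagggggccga
Mnt: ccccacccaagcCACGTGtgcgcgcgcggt
Mxd4: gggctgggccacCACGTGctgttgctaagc

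The motif was centred at the RefSeq start of Max, 120 bases before that of Mnt and 216 bases before that of Mxd4. The GATA motif AGATAA, searched on both strands, was in 0 of the 11 windows, in 11.2% of all windows and in 512 of the 8528 windows of detected protein-coding genes. A match is a string of letters and not a bound site, and no binding was measured here.

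Genes for proteins that MYC works through were detected throughout. All 12 genes of the coactivator list passed the detection limit, and their median was 73.3 TPM, against 20.5 TPM for all detected protein-coding genes. The list also holds Zbtb17, at 49.0 ± 2.36 TPM, which encodes MIZ1, a protein through which MYC represses genes. Among the highest were Ruvbl2, an ATPase of chromatin remodelling complexes, at 569 ± 4.29 TPM, the histone methylation adaptor Wdr5 at 155 ± 22.0 TPM and the remodeller Ep400 at 118 ± 44.1 TPM. The lowest was Ccnt1, the cyclin of the elongation kinase, at 3.07 ± 0.608 TPM. Between the libraries 9 of the 12 were called, beside 69.1% of all genes tested, and 8 of these were higher in replicate 2, beside 34.7%, with a median log2 ratio of 0.25 against -0.01 for all genes tested.

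All 11 genes for MYC turnover were detected, with a median of 12.3 TPM. The ubiquitin ligase adaptor gene Trpc4ap was at 91.2 ± 5.45 TPM, the scaffold gene Axin1 at 47.0 ± 1.54 TPM and the ubiquitin ligase gene Huwe1 at 36.3 ± 2.97 TPM. The lowest was the deubiquitinase gene Usp28, at 1.67 TPM and 1.42 TPM. Of the 11, 5 were called higher in replicate 2 and 3 higher in replicate 1, beside 34.7% and 34.4% of all genes tested. Aurka and Usp37, named here after their values were seen, differed by 2.74-fold and 2.41-fold.

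On the repressor side, all 12 SIN3 corepressor genes passed the detection limit, and their median was 54.0 TPM. Sap18 was at 491 ± 15.7 TPM, the histone-binding Rbbp7 at 259 ± 92.1 TPM, Ncor1 at 107 ± 19.6 TPM and the deacetylase gene Hdac1 at 63.3 ± 7.52 TPM, and Arid4b was lowest at 8.07 ± 1.82 TPM. Of these, 8 were called higher in replicate 1 and 3 higher in replicate 2, beside 34.4% and 34.7% of all genes tested. Their median log2 ratio was -0.18, against -0.01 for all genes tested. The Polycomb complex that MGA joins was represented by 11 genes, all detected, with a median of 19.6 TPM. Its highest were the HP1 genes Cbx3 at 80.7 ± 7.31 TPM and Cbx1 at 72.4 ± 6.51 TPM and the ubiquitin ligase genes Rnf2 at 80.5 TPM and 50.8 TPM and Ring1 at 63.1 TPM and 57.4 TPM, and the lowest was Rybp at 5.31 TPM and 4.42 TPM. In this list 6 were called higher in replicate 1 and 4 higher in replicate 2, where all genes tested gave 34.4% and 34.7%. Tfdp1, named after its values were seen, was 3.06-fold higher in replicate 2 in scaled counts.

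The Mondo arm of the wider network uses MLX in place of MAX. Mlx had 22.6 TPM in the first library and 17.1 TPM in the second, and Mlxip 13.3 TPM and 16.1 TPM, of which Mlxip was called, higher in replicate 2. Mlxipl, the glucose-responsive member known from liver, was at 0 TPM in both with 1 and 0 counts. Of 6 genes for E-box-binding proteins of the same class outside the network, 5 were detected. Usf2 was at 238 ± 21.3 TPM, above Mnt and Max, followed by Tfap4, whose protein is known for binding another form of the E-box, at 57.7 ± 9.16 TPM, Tfeb at 45.7 ± 7.11 TPM and Tfe3 at 40.5 ± 5.52 TPM, while Mitf was at 0.01 TPM in both libraries. Of the 5, 3 were called higher in replicate 2 and 2 higher in replicate 1, again beside 34.7% and 34.4% of all genes tested.

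Of 25 genes known as MYC targets, 24 were detected, with a median over all 25 of 142 TPM. Of all protein-coding genes 39.0% were detected, and the median of those detected was 20.5 TPM. Ldha, lactate dehydrogenase A, was at 2893 ± 649 TPM, the nucleolar protein gene Ncl at 2621 ± 518 TPM, the cell cycle kinase gene Cdk4 at 1941 ± 283 TPM and the ribosomal RNA methyltransferase gene Fbl at 873 ± 27.6 TPM. Tert, the catalytic subunit of telomerase, was the lowest with 0 counts and 1 count. Between the libraries 14 were called higher in replicate 2 and 8 higher in replicate 1, beside 34.7% and 34.4% of all genes tested. In total, 22 of the 24 targets tested were called. Of all genes tested 69.1% were called, and of the 8376 detected protein-coding genes 6503 were. Ccnd2, cyclin D2, named after its values were seen, was at 77.1 TPM and 148 TPM, a 2.06-fold difference in scaled counts. The E-box was in promoter windows of 6 of the 20 target genes that had a window, against 12.9% of 6712 detected protein-coding genes.

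Of 6 genes listed here as repressed by MYC with MIZ1, 2 were detected. A part of MIZ1 is not established for each of the 6 and was not tested. Gadd45a, a growth arrest gene, had 127 TPM in the first library and 87.8 TPM in the second, and Cdkn1a, a cell cycle inhibitor gene, had 85.8 TPM and 93.8 TPM. Gadd45a was called higher in replicate 1 and Cdkn1a higher in replicate 2, directions that 34.4% and 34.7% of all genes tested also took. Ndrg1, Cdkn2b, Cdkn1c and Cebpa had at most 4 counts in a library, with Cebpa at 0 in both.

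**Figure D5:**
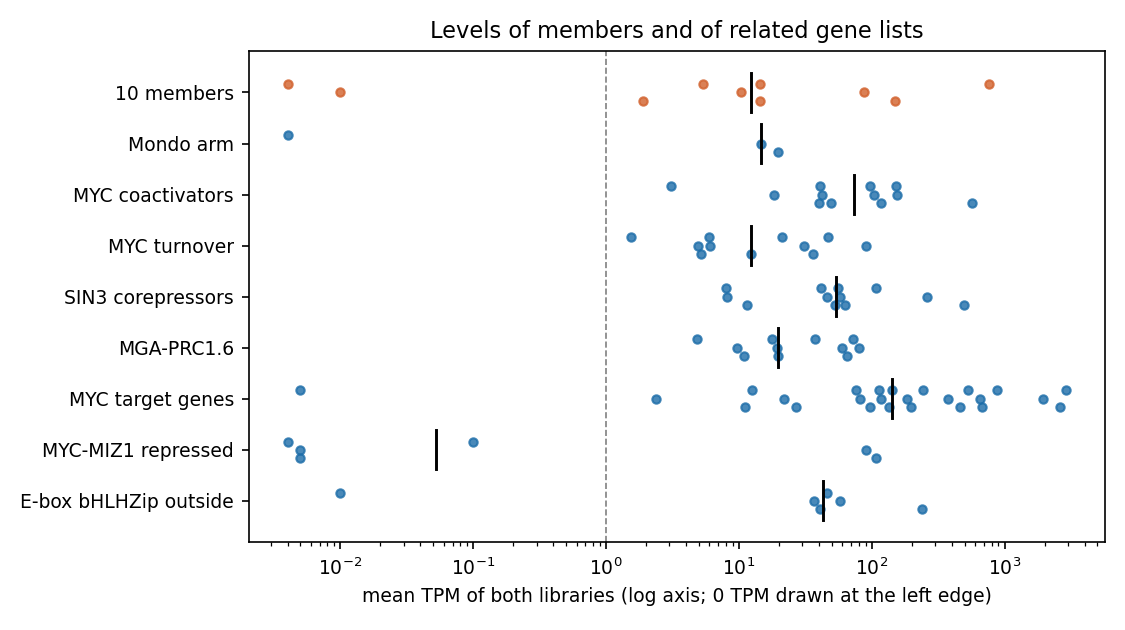
Mean TPM over both libraries on a log axis for the 10 members and for each list of related genes, 1 point for each gene, with a vertical bar at the list's median and the detection limit of 1 TPM dashed. Points at the left edge include genes at 0 TPM, and the MYC target genes have the rightmost median, at 142 TPM.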

How the data were processed

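Each of 2 libraries has a table of genes and one of transcripts. Its expected and posterior mean counts are estimated counts, per the file headers. TPM and FPKM were deposited by the authors, as was the isoform share, a percent of the gene's TPM. The build is mm10 with GENCODE M4, per the labels and the deposited readme notes. The sources used here do not give the aligner, the quantifier or the use of strand. Names, classes, coordinates and coding parts came from GENCODE M21, the same build, and matched 42462 genes. Of 45 member models, 37 had the same length in both versions. All models of Max, Mxi1 and Mxd1 differed in length, so their exons, starts and codons are those of M21, while their shares are those of M4 models. Promoter windows are from RefSeq.

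Rounded counts of genes with a mean of at least 10 were scaled by TMM (edgeR 4.0.16, R 4.3.3). They were compared between the libraries by an exact two-sided binomial test (scipy 1.17.1), with Benjamini-Hochberg adjustment at 0.05 over all genes tested. Before that, the test was run on simulated counts that held counting error only. That run cannot give its error rate for libraries that differ by more than counting error. Intervals of ratios are Clopper-Pearson intervals at 95%. They hold counting error alone, as PCR copies are not independent molecules. A model was called coding-only when its length exceeded its coding length by the stop codon alone, in both versions. Alternatives were other TPM and count minimums, FPKM, CPM, posterior mean values, library totals, DESeq2 1.42.0 size factors, TPM pseudocounts and each library alone, and, added after seeing the data, subsets of transcript models.

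All members, the 4 highest and the lowest gene of each of 8 lists, Pvt1 and every member model with a share of 5% or more were named. Some genes that this rule names are not reported here. Members and lists were chosen with earlier results of these data known.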

Additional observations from a re-analysis of the deposited data

How the results depend on the processing

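The count of detected members was 7 to 8 and that of detected MYC targets 23 to 24 under every minimum and unit tried, where a minimum of 5 TPM dropped Mga and Eif4e. Detection was not counted on protein-coding models only, by which Mga was at 0.99 TPM and 0.76 TPM, under 1 TPM in both libraries. Myc over Max ranged from 7.12 to 10.7 with 1 library left out, was 7.20 in CPM, and was 2.89 when only protein-coding models with an untranslated region were used, an alternative added after seeing the data. The antagonists over the MYC paralogs ranged from 0.211 to 0.315 with 1 library left out and were 0.454 in CPM. With protein-coding models only the ratio was 0.150, and with those that have an untranslated region only it was 0.450, both added after seeing the data. By construction both leave out the retained-intron Mnt model, and the second also leaves out the leading Myc model with the counts given to it. Members called were 7 under all settings except library totals, which gave 6. With TPM and a pseudocount of 1, the ratios of 7 of the 8 tested members left their counting interval and kept their direction. With a pseudocount of 0.1 or 1, the log2 ratio of Mga was -0.94 or -0.64, and by posterior mean shares ENSMUST00000046717 averaged 21.8%. Mga models and Mycl rest on few counts. No paired analysis was possible because there is only 1 group.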
